A study of Rattus norvegicus with 4 samples.

Results

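The enzymes described here are the oxidases, dehydrogenases and esterases of the liver that handle drugs, alcohols, aldehydes, amines and esters without a cytochrome P450. They were taken by gene symbol in the platform annotation: every probe for a flavin-containing monooxygenase (Fmo), an alcohol dehydrogenase (Adh), an aldehyde dehydrogenase (Aldh), a carboxylesterase (Ces), an aldehyde oxidase (Aox) or a monoamine oxidase (Maoa, Maob), without Aldh4a1 and Aldh6a1. This gave 39 of 33849 gene probes, for 34 of the 12198 genes named by a probe of their own, and 1 of these probes is annotated to 2 carboxylesterases. A probe counted as measured if, in at least 1 group, neither array flagged it as near background or masked, which 35 of the 39 probes and 30 of the 34 genes were. The liver RNA came from male Otsuka Long-Evans Tokushima Fatty (OLETF) rats, which become obese and diabetic on ordinary chow. In the thiamine group, 2 rats had drunk water holding 0.2% thiamine (vitamin B1; 2 g per L) from an age of 4 weeks, for 51 weeks, and in the untreated group 2 rats had drunk water without it. Fasted for 16 h and anaesthetised with pentobarbital, all were killed when 55 weeks old, and each rat had its own 1-colour CodeLink array. The study kept 8 rats per group, 2 to a cage, and no lean strain was among the arrays analysed here. The sample labels name no cage, so whether the 2 rats of a group shared one is not known.

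Flavin-containing monooxygenases sit in the endoplasmic reticulum and add oxygen to nitrogen and sulphur atoms with electrons taken directly from NADPH, whereas P450 enzymes need a separate reductase. Alcohol and aldehyde dehydrogenases work in sequence on ethanol, retinol and many lipid-derived aldehydes, while aldehyde oxidase is a molybdenum enzyme of the cytosol and monoamine oxidases lie on the outer mitochondrial membrane. Carboxylesterases of the Ces1 and Ces2 groups cleave drug esters and lipid esters, and in rodents both groups consist of many similar copies.

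Of these families, the flavin-containing monooxygenases had the largest median difference between thiamine and untreated livers, with 4 of 4 measured genes above 0 and a median of 0.55 on the log2 scale. The alcohol dehydrogenases (median 0.09), the aldehyde dehydrogenases (-0.02), the carboxylesterases (-0.07) and the monoamine oxidases (-0.01) had smaller medians, beside 0.005 for all 8784 measured genes, and the 1 measured aldehyde oxidase was at 0.31. With 1 array left out the carboxylesterase median lay between -0.24 and 0.10 and that of the monoamine oxidases between -0.31 and 0.30. No member passed the test adjusted over all 18664 kept probes (limma, adjusted by the method of Benjamini and Hochberg, 0.0% called, smallest adjusted p = 0.22), while 1260 probes (6.75%) had an unadjusted p under 0.05, so every difference below is a value and not a call. At an unadjusted p under 0.05 (limma) there were 3 of 30 member genes, Fmo2, Fmo5 and Ces1c, all above 0, beside 6.91% of all measured genes and 3.84% with a positive difference. For Fmo2 this depended on the probe, since its other probe had an unadjusted p of 0.63 (limma). For Fmo5 the difference shrank from 0.67 to 0.51 with flagged spots missing, which leaves untreated rat 1 alone in its group. For Ces1c it depended on the processing. The unadjusted p of Ces1c (limma) was 0.040 with median scaling, 0.060 with an offset of 16, 0.082 with background-subtracted intensities and 0.086 in the deposited value table. Fmo2 and Aldh3b1 were kept through the thiamine group alone, where they were above background, so the filter itself favoured a positive difference for them. Aldh1a2 also passed through the thiamine group alone, and Ces5a through the untreated group alone, each with 1 array of the other group near background. The thiamine rats both lay above both untreated rats in 9 of 30 member genes, beside 18.6% of all measured genes. Both lay below in 0 of 30, beside 18.9% of all measured genes. Without the genes near background on both arrays of a group, an alternative chosen after seeing the data, 7 of 28 members had both thiamine rats above (17.4% of the 8605 such genes) and 2 of 28 had an unadjusted p under 0.05 (6.12%; limma). Among the 9 with both thiamine rats above, 3 are flavin-containing monooxygenases, 4 aldehyde dehydrogenases, 1 a carboxylesterase and 1 an aldehyde oxidase. Over the 30 genes 17 differences were above 0 and 13 below, with a median of 0.03 and a range from -0.31 to 0.97. For all measured genes 50.7% were above 0.

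**Figure D1:**
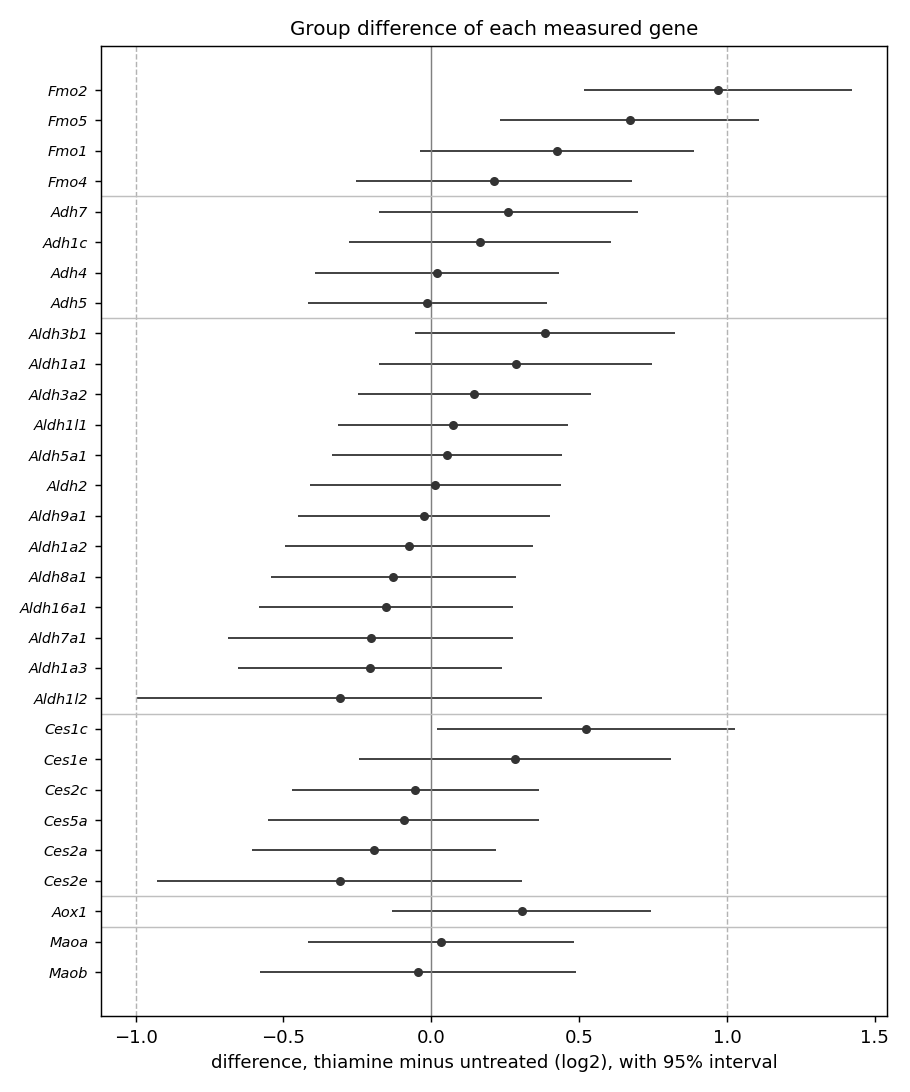
Difference between thiamine and untreated livers (thiamine minus untreated, log2) for the 30 measured genes, grouped by family, with the moderated 95% interval not adjusted for the number of genes; dashed lines mark a 2-fold difference. The 4 flavin-containing monooxygenases at the top lie between 0.21 and 0.97, and the intervals of all genes but Fmo2, Fmo5 and Ces1c stay within the dashed lines.

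All levels below are normalized log2 intensities of 1 probe, whose scale cannot be set against that of another probe. In bulk liver RNA, fewer cells of a type and less RNA per cell cannot be told apart. Each SE is the moderated one of limma with n = 2 rats per group, which leans towards the spread of all other probes. The 95% intervals lay within a 2-fold difference in either direction for 27 of 30 member genes, and for 8375 of all 8784 genes. The thiamine arrays had 19075 and 20071 of the 33849 gene probes above background, the untreated arrays 18176 and 18392, and between 1.49% and 7.49% were flagged as contaminated. The part of this difference in detection in the values of Fmo2 and Aldh3b1, which were above background in the thiamine livers alone, was not tested.

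Fmo2, best known as the form of the lung, has 2 probes that did not behave alike. The brighter one was at 7.93 and 8.05 in the thiamine livers, where it was above background, and at 6.79 and 7.26 in the untreated livers, where it was not well above background on either array. The mean level with thiamine was at least 1.67-fold higher, taking as the untreated level, per array, the higher of the probe's own signal and the lowest signal above background. This bound is between group means and leaves out the spread between rats. The fitted difference was 0.97 ± 0.20 (adjusted p = 0.22, limma). The other probe was at 7.53 and 7.31 with thiamine and, again not well above background, at 7.54 and 7.10 without, with a fitted difference of 0.10 ± 0.21 and a bound of at least 1.02-fold. Both probes of Fmo2 were kept through the thiamine group alone, and they disagree on the size of the difference. The lowest signal above background was 7.08 on both thiamine arrays and 7.25 and 7.24 on the untreated arrays. For the dimmer probe, untreated rat 1 at 7.54 counted as near background and thiamine rat 2 at 7.31 did not. Detection alone thus gives no difference in level. The median of the family was 0.55 with Fmo2 at the bound of its brighter probe, which still ranks above Fmo5. It was 0.48 with the mean of all kept probes of a gene, 0.47 with flagged spots missing and 0.42 over the genes above background on all 4 arrays.

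Fmo5, a monooxygenase that accepts few of the classic substrates of its family, was at 12.06 and 12.34 in the thiamine livers, against 11.69 and 11.37 in the untreated livers. The groups did not overlap, and the difference was 0.67 ± 0.20 (adjusted p = 0.41, limma). The spot of Fmo5 was flagged as contaminated on the array of untreated rat 2, and the difference was 0.51 with flagged spots missing. Fmo1, which oxidises a wide range of amines and sulphides, was at 11.88 and 12.39 with thiamine and at 11.77 and 11.64 without. Thiamine rat 1 lay close to the untreated rats, so that the difference of 0.42 ± 0.21 (adjusted p = 0.78, limma) became 0.17 when thiamine rat 2 was left out and 0.68 when thiamine rat 1 was. Fmo4, a little studied member, was at 10.06 and 10.17 in the thiamine livers and at 9.63 and 10.17 in the untreated livers, and the groups overlapped. Its difference of 0.21 ± 0.21 was -0.05 without untreated rat 1.

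The promoters of Fmo5 and Fmo1 are shown because these were the family's genes above background in all rats whose groups did not overlap. They run from 250 bases before to 50 bases after the RefSeq start in the GRCr8 assembly, 5′ to 3′, with matches to the motifs named below in capitals. Of the 34 member genes, 28 had such a window.
Fmo5 promoter, GRCr8 chr2:187910714-187911013, plus strand: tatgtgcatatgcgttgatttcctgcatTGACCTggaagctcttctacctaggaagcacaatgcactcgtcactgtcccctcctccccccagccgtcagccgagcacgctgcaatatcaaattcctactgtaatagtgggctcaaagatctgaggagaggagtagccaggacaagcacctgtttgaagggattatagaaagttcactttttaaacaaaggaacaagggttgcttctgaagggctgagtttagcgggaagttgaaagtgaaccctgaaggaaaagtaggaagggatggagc
Fmo1 promoter, GRCr8 chr13:77747617-77747916, minus strand: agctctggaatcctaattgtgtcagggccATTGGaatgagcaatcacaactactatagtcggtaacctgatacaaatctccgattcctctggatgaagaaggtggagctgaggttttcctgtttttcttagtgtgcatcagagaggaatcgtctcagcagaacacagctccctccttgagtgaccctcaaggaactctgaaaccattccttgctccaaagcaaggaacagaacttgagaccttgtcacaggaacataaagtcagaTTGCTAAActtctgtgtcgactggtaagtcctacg
The search covered both strands for the TATA box TATAAA, the CCAAT box, the GC box GGGCGG, the nuclear receptor half-site AGGTCA, the HNF1 half-site GTTAAT and the C/EBP site TTNNGNAA, none of which overlapped another in the windows shown. Fmo5 held AGGTCA, starting 222 bases before the start site, on the opposite strand. Fmo1 held CCAAT on the opposite strand, 221 bases before the start site, and TTNNGNAA, also on the opposite strand, at 15 bases after it. AGGTCA occurred in 5 of the 28 member windows, beside 16.2% of 33469 windows of the same length, CCAAT in 20, beside 37.5%, and TTNNGNAA in 15, beside 41.3%. TATAAA occurred in 1 of 28 (14.2% of all windows), GGGCGG in 13 (33.1%) and GTTAAT in 1 (7.45%). A match is a run of letters and not a measured binding site.

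By their brightest probes, all 4 measured alcohol dehydrogenase genes overlapped between the groups, beside 5484 of all 8784 measured genes. Their differences lay between -0.01 and 0.26. Adh1c, the class I enzyme that carries out most ethanol oxidation in liver, was at 14.8 and 14.59 in the thiamine livers and at 14.73 and 14.34 in the untreated livers, a difference of 0.16 ± 0.20. Adh5, the class III enzyme that clears formaldehyde and S-nitrosoglutathione with glutathione, was at 11.39 and 11.19 with thiamine and at 11.25 and 11.35 without. Its difference was -0.01 ± 0.18, with a 95% interval from -0.42 to 0.39. Adh7, the class IV enzyme known from the stomach, was at 0.26 ± 0.20 (0.10 to 0.42 with untreated rat 1 or untreated rat 2 left out) and the brighter probe of Adh4, the class II enzyme, at 0.02 ± 0.19. The dimmer probe of Adh4 had groups that did not overlap and was at 0.36 ± 0.20, but it was flagged as contaminated and near background on the array of untreated rat 2.

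**Figure D2:**
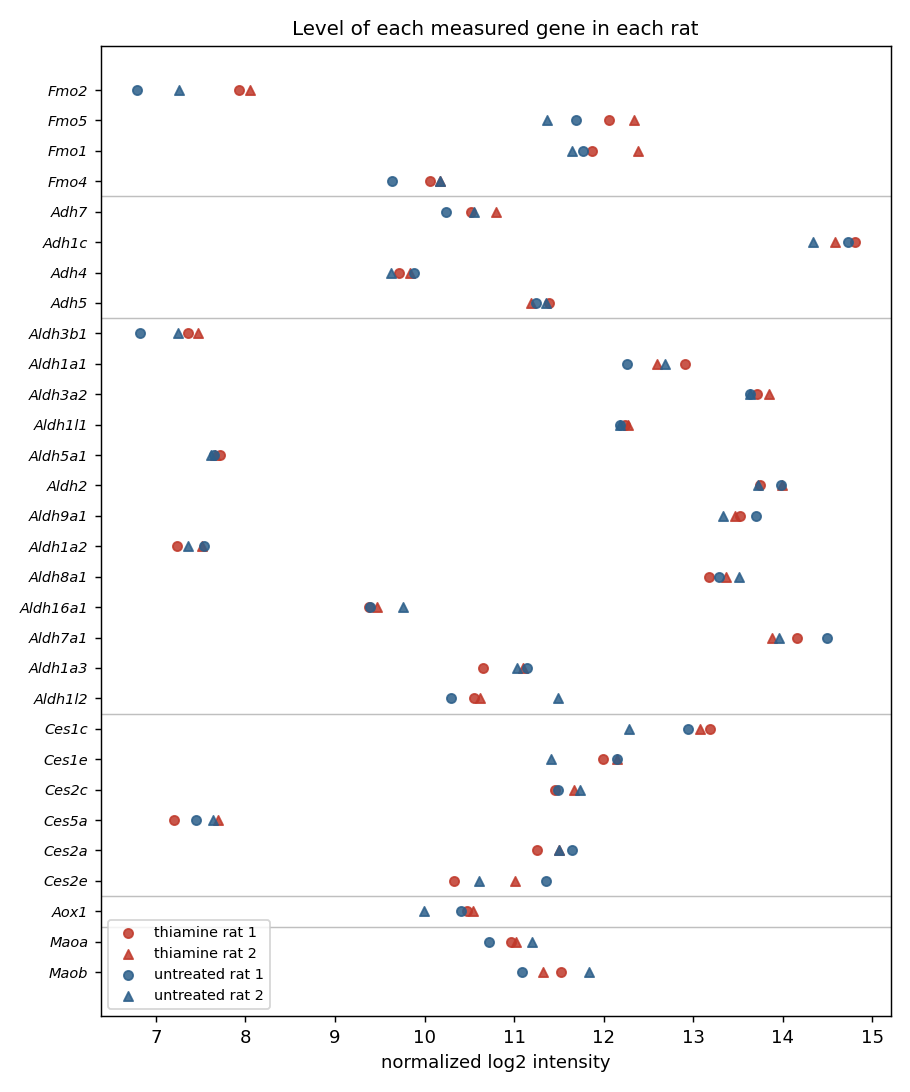
Normalized log2 intensity of the brightest measured probe of each of the 30 genes in each rat, grouped by family; red marks are thiamine rats and blue marks untreated rats. The marks of both groups mix in 21 of the 30 genes, beside 5484 of all 8784 measured genes. The untreated rats lie furthest apart for Aldh1l2, Maob, Ces2e and Ces1e. Positions along the axis can be compared within a gene only.

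Of 15 aldehyde dehydrogenase genes on the array 13 were measured, 6 with a difference above 0 and 7 below. Aldh3b1, which oxidises aldehydes made from lipids, was at 7.36 and 7.47 in the thiamine livers and, not well above background on either array, at 6.83 and 7.24 in the untreated livers. The groups did not overlap, and the level with thiamine was at least 1.12-fold higher (fitted difference 0.38 ± 0.20, adjusted p = 0.80, limma). The fitted difference was 0.18 with untreated rat 1 left out, 0.59 with untreated rat 2 left out and 0.68 in the deposited value table. Aldh3a1, an enzyme of the cornea that dioxin-like compounds induce in liver, was near background on all 4 arrays. Aldh18a1, which starts proline synthesis, was near background on all but the array of untreated rat 1.

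The other 3 aldehyde dehydrogenases whose groups did not overlap had smaller differences. Aldh3a2, the fatty aldehyde dehydrogenase of the endoplasmic reticulum, was at 13.71 and 13.84 in the thiamine livers and at 13.63 in both untreated livers, a difference of 0.15 ± 0.18 (adjusted p = 0.93, limma). Aldh1l1, which turns 10-formyltetrahydrofolate into tetrahydrofolate in the cytosol, was at 12.24 and 12.28 with thiamine and at 12.18 in both untreated rats. Its difference was 0.07 ± 0.18. Aldh5a1, the succinic semialdehyde dehydrogenase that ends the breakdown of GABA, was at 7.71 and 7.66 in the thiamine livers and at 7.65 and 7.62 in the untreated livers, a difference of 0.05 ± 0.18. For these 3 genes the separation rests on rats of a group lying close together, with gaps of at most 0.13, and not on a wide distance between groups.

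Aldh2, the mitochondrial enzyme that removes acetaldehyde, was at 13.74 and 13.99 in the thiamine livers and at 13.98 and 13.72 in the untreated livers, so each thiamine rat had an untreated rat at nearly the same level. The difference was 0.01 ± 0.19, with a 95% interval from -0.41 to 0.44. Aldh1a1, the cytosolic retinal dehydrogenase, was at 12.91 and 12.6 with thiamine and at 12.26 and 12.68 without, a difference of 0.29 ± 0.21. With 1 array left out it lay between 0.07 (untreated rat 1) and 0.50 (untreated rat 2). The other retinal dehydrogenases Aldh1a2 and Aldh1a3 were at -0.08 ± 0.19 and -0.21 ± 0.20, both with overlapping groups. Aldh1a2 was near background on the array of untreated rat 2.

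Of the remaining aldehyde dehydrogenases Aldh7a1, Aldh8a1, Aldh9a1 and Aldh16a1 overlapped between the groups. Aldh7a1, which acts in lysine breakdown, was at 14.16 and 13.88 in the thiamine livers and at 14.49 and 13.96 in the untreated livers, a difference of -0.20 ± 0.22. Aldh8a1, which acts in tryptophan breakdown, was at 13.17 and 13.37 with thiamine and at 13.28 and 13.52 without, a difference of -0.13 ± 0.19. Aldh9a1, which acts in carnitine synthesis, was at 13.52 and 13.47 in the thiamine livers and at 13.7 and 13.34 in the untreated livers, a difference of -0.02 ± 0.19. Its spot was flagged as contaminated on the array of thiamine rat 1. Aldh16a1, whose function is little known, was at -0.15 ± 0.19.

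Aldh1l2, the mitochondrial counterpart of Aldh1l1, is described because of its spread between rats, which was noticed after its values were seen. It was at 10.55 and 10.61 in the thiamine livers and at 10.3 and 11.49 in the untreated livers, so that untreated rat 2 stood apart from the other 3 rats. Its second probe showed the same order, with 9.53 and 9.56 in the thiamine livers and 9.37 and 10.48 in the untreated livers. The difference of the brighter probe was -0.31 ± 0.31, but 0.29 when untreated rat 2 was left out and -0.91 when untreated rat 1 was.

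The carboxylesterases divided by group of copies: 2 of 2 measured Ces1 genes had differences above 0, and 3 of 3 measured Ces2 genes and Ces5a had differences below 0. Ces5a was kept through the untreated group alone, so the filter favoured a difference below 0 for it. No gene passed the test, and the sign of Ces1e, Ces2c, Ces2e and Ces5a turned when 1 or another array was left out. Ces1c, which in rodents is secreted into plasma, was at 13.19 and 13.08 in the thiamine livers and at 12.95 and 12.28 in the untreated livers. The groups did not overlap, and the difference of 0.52 ± 0.23 (adjusted p = 0.72, limma) became 0.19 when untreated rat 2 was left out and 0.86 when untreated rat 1 was. Ces1e, known in the mouse as egasyn, the protein that holds beta-glucuronidase in the endoplasmic reticulum, was at 11.99 and 12.14 with thiamine and at 12.15 and 11.42 without. Untreated rat 2 was the low one for both genes, and the difference of Ces1e, 0.28 ± 0.24, was -0.08 without that rat.

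A further probe is annotated to both Ces1f and Ces1c and names neither gene, and it is described in full after its values were seen. It was at 11.7 and 11.99 in the thiamine livers and at 11.03 and 10.88 in the untreated livers, and both pairs of rats lay closer together than the groups. Its difference of 0.89 ± 0.19 (adjusted p = 0.22, limma) was the largest among the carboxylesterase probes and lay between 0.75 and 1.04 when any 1 array was left out. The probe annotated to Ces1c alone gave 0.52, so the 2 probes differ in size. Ces1f, Ces1e, Ces1d and Ces1c follow one another in the GRCr8 annotation, and transcripts of such similar copies can hybridise to the same probe, so the values of single Ces1 genes are uncertain. Ces1d had a probe near background on all 4 arrays.

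The promoter window of Ces1c is shown as that of the carboxylesterase gene whose groups did not overlap, with the same motifs in capitals.
Ces1c promoter, GRCr8 chr19:30099197-30099496, plus strand: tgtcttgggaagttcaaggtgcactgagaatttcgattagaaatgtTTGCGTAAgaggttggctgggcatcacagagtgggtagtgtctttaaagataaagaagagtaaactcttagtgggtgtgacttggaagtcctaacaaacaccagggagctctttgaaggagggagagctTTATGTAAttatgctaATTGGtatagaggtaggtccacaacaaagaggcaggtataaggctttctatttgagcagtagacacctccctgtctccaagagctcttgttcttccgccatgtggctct
It held TTNNGNAA starting 204 bases before the start site, where both strands match, and 75 bases before it on the strand shown. CCAAT lay on the opposite strand 59 bases before the start site.

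Among the Ces2 genes, Ces2c was at 11.46 and 11.66 in the thiamine livers and at 11.49 and 11.74 in the untreated livers, a difference of -0.05 ± 0.19. Ces2a, annotated as a transcribed pseudogene in GRCr8, was at 11.26 and 11.5 with thiamine and at 11.65 and 11.5 without, a difference of -0.19 ± 0.19. Ces5a, a secreted esterase found as cauxin in cat urine, was near background on the array of thiamine rat 1 and was at -0.09 ± 0.21. Ces2e is described because of its spread, which was noticed after its values were seen: it was at 10.33 and 11.01 in the thiamine livers and at 11.35 and 10.61 in the untreated livers, so that rats of the same group stood further apart than the groups. Its second probe gave the same order of the 4 rats, at 9.7 and 10.75 with thiamine and at 10.91 and 10.04 without. The difference of the brighter probe, -0.31 ± 0.28, turned to 0.06 when untreated rat 1 was left out and became -0.68 when untreated rat 2 was.

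**Figure D3:**
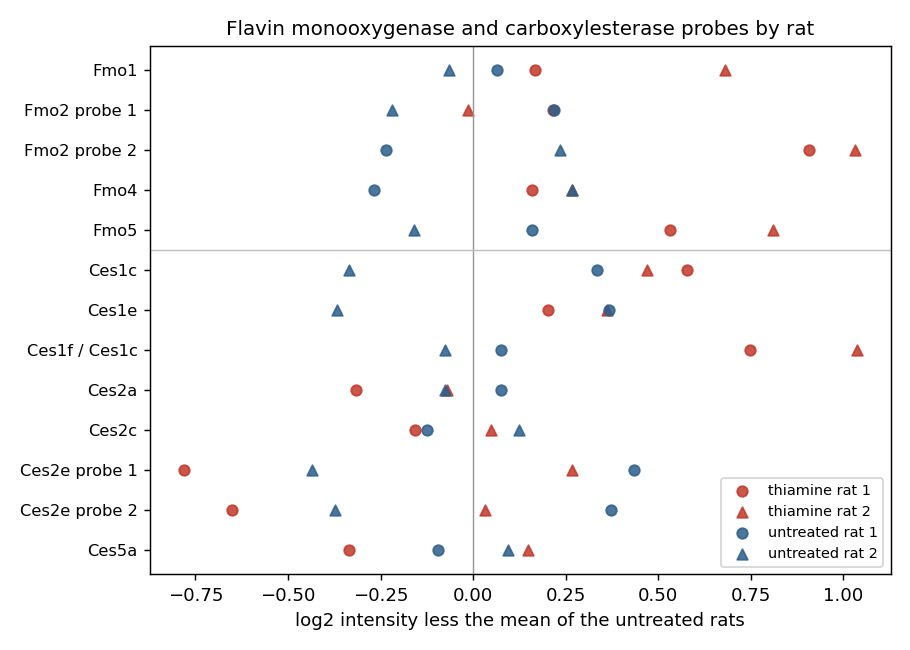
Log2 intensity of each measured flavin-containing monooxygenase and carboxylesterase probe in each rat, less the mean of the 2 untreated rats for that probe. Thiamine rats (red) lie to the right of both untreated rats (blue) for Fmo1, Fmo5, probe 2 of Fmo2, Ces1c and the probe listing Ces1f and Ces1c, while the groups overlap for the Ces2 genes.

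Aox1, an aldehyde oxidase that also oxidises nitrogen-containing drug rings, was at 10.47 and 10.54 in the thiamine livers and at 10.41 and 9.99 in the untreated livers. The groups did not overlap, but untreated rat 1 lay close to both thiamine rats, and the difference of 0.31 ± 0.20 (adjusted p = 0.84, limma) shrank to 0.10 when untreated rat 2 was left out and became 0.51 when untreated rat 1 was. Aox4 was near background on all 4 arrays. Of the monoamine oxidases, Maob, which prefers phenylethylamine, was at 11.53 and 11.32 in the thiamine livers and at 11.09 and 11.84 in the untreated livers, with both thiamine rats between the untreated ones. Its difference was -0.04 ± 0.24. Maoa, which prefers serotonin and noradrenaline, was at 0.03 ± 0.20, and its groups overlapped in the same way.

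For 25 of the 30 member genes, the 2 rats of at least 1 group were further apart than the group means, which was so for 75.4% of all measured genes. The median gap between the rats of a pair was 0.20 for the thiamine rats and 0.34 for the untreated rats over the members, and 0.16 and 0.22 over all measured genes. The untreated pair had the larger gap in 21 of 30 member genes and in 5346 of all 8784 genes. Leaving out untreated rat 2 or untreated rat 1 moved many of the values given above, whereas the differences of Fmo5 and the probe listing Ces1f and Ces1c stayed above 0.51 whichever array was left out.

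Genes that work beside these enzymes were read from lists of the same pathways, and no member of any list passed the test over all probes. Of 7 measured electron donors of microsomal oxidases 3 were above 0 and 4 below, with a median of -0.05. Por, the reductase that P450 enzymes need and flavin-containing monooxygenases do not, was at 10.84 and 11.08 in the thiamine livers and at 9.7 and 9.64 in the untreated livers (1.29 ± 0.18, adjusted p = 0.22, limma). Cyb5r4 was at -0.24 ± 0.19 and Cyb5r3 at -0.15 ± 0.18, both with the thiamine rats below both untreated rats. Of 15 measured other esterases, amidases and epoxide hydrolases 10 were above 0 and 5 below, with a median of 0.21; at an unadjusted p under 0.05 (limma) 2 were above and 2 below, beside the 6.91% of all measured genes. Among them Nceh1, a neutral cholesterol ester hydrolase, was at 0.93 ± 0.19 and Pon3, a lactonase carried on lipoproteins, at 0.51 ± 0.18, while the epoxide hydrolase Ephx2, named after its values were seen, was at -0.56 ± 0.21. The amidase Naaa was not well above background in the thiamine livers, and its bound between the group means was 1.40-fold lower there (fitted difference -0.49 ± 0.18). Of 9 measured genes of ethanol and aldehyde clearance outside the families 7 were above 0 and 2 below, with a median of 0.24. Adhfe1, which acts on hydroxy acids in mitochondria, was at 0.57 ± 0.22, Esd at 0.37 ± 0.18 and Glo1 at -0.33 ± 0.18.

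Of 16 measured short-chain dehydrogenases of retinoids and steroids 8 were above 0 and 8 below (median -0.02), and Hsd17b2, which inactivates sex steroids, was at 0.46 ± 0.19. The aldo-keto reductases had 4 of 9 above 0 and 5 below (median -0.07), with the aldose reductase Akr1b1 at 0.61 ± 0.18. The other amine and flavin oxidases had 5 of 9 above 0 (median 0.04). Among these 5, Renbp was kept through the thiamine group alone, so the filter favoured a positive difference for it. Its bound between group means was at least 1.21-fold. The molybdenum enzymes and makers of their cofactor, which Aox1 needs, had 4 of 9 above 0 (median -0.01). Of 8 measured nuclear receptors and regulators of detoxification 3 were above 0 and 5 below (median -0.03). In that list Nr1i3, the receptor CAR, was at 11.39 and 11.7 in the thiamine livers and at 11.11 and 11.09 in the untreated livers, a difference of 0.44 ± 0.19 (adjusted p = 0.70, limma). Nr1i2, the receptor PXR, was at 0.35 ± 0.20, while Nr1h4 was at -0.30 ± 0.20, with both thiamine rats below both untreated rats.

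The arrays carried the markers of liver. Of 10 listed hepatocyte markers 9 had a named probe and all 9 were above background, with a mean level of 14.19 and 14.37 in the thiamine livers and 14.31 and 14.18 in the untreated livers, so these means overlapped. Markers of Kupffer cells, the macrophages of the liver, were all above 0 in the 9 of 12 with a named probe (median 0.62), with a mean level of 11.09 and 10.47 in the thiamine livers and 10.36 and 9.96 in the untreated livers. Thiamine rat 1 stood highest. By the median level of the list the groups overlapped, with thiamine rat 2 at 10.57 and untreated rat 1 at 10.82. Markers of the liver endothelium were above 0 in 6 of 6 measured (median 0.35), with mean levels of 9.83 and 9.62 in the thiamine livers and 9.35 and 9.33 in the untreated livers. Of 5 measured stellate cell markers 3 were above 0 (median 0.02), with Lrat and Acta2 not above background, and of 2 measured cholangiocyte markers 1, with Sox9 and Spp1 not above background. The part of these cells in the values of the enzymes was not tested.

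Hepatocytes near the central vein and near the portal vein differ in these enzymes, and the mean level of the markers of each zone was higher in both thiamine livers than in either untreated liver. Of 8 measured pericentral markers 7 were above 0 (median 0.30). The mean levels of the 8 were 10.86 and 11 in the thiamine livers and 10.64 and 10.59 in the untreated livers. Slc1a2, which enters the count of 7 and these means, was kept through the thiamine group alone. The filter therefore favoured a positive difference for Slc1a2, whose bound between group means was at least 1.13-fold. Of 8 measured periportal markers 6 were above 0 (median 0.36; Arg1 was not above background), with mean levels of 11.61 and 11.62 in the thiamine livers and 11.42 and 11.18 in the untreated livers. By the median level of the periportal list the groups overlapped, at 11.25 and 11.36 with thiamine and at 11.23 and 11.28 without. The part of the zones in the differences of the flavin-containing monooxygenases and of Ces1c was not tested either.

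**Figure D4:**
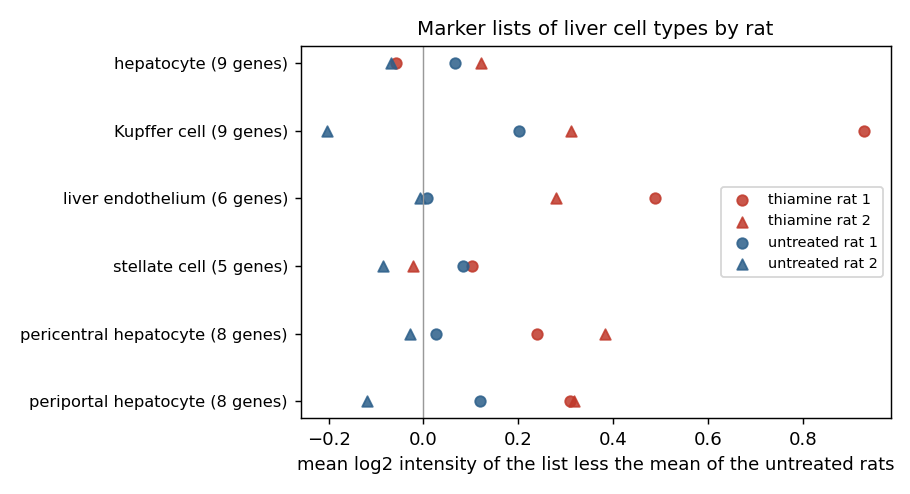
Mean log2 intensity of each marker list with at least 5 measured genes in each rat, less the mean of the 2 untreated rats. Thiamine rats (red) lie to the right of both untreated rats (blue) for Kupffer cell, endothelial, pericentral and periportal markers, and mix with them for hepatocyte and stellate cell markers.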

How the data were processed

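Each of 4 rat livers was measured on 1 CodeLink array. Per the file headers, the deposited reports were written by CodeLink Expression Analysis and give each spot's mean and local background as an intensity on a linear scale, with a quality flag. The deposited value table of the series gives normalized intensity values for these arrays, with column medians between 147.48 and 147.51 and each array's order of spots kept. The steps that led to it are not stated in the labels used here, and it served as an alternative.

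Here the background was corrected with normexp (offset 50) over 35129 features, 1280 control features were left out, and log2 values of 33849 gene probes were quantile normalized. Probes without an L (near background) or M (masked) flag on both arrays of at least 1 group were kept, which left 18664. Gene names came from the platform annotation, with 16753 probes for 1 gene, 165 for several and 16931 with no name there, updated by gene identifier to GRCr8 RefSeq symbols. A gene is given by its brightest kept probe. The comparison used limma 3.58.1 with R 4.3.3 (two-sided p, adjusted after Benjamini and Hochberg across every kept probe, threshold 0.05, 10.8 degrees of freedom after moderation), tested on simulated data. The members and gene lists were chosen with earlier results of these data known. All 4 values are given for genes whose groups did not overlap and for up to 12 others by mean level, and up to 3 genes per list by the smallest unadjusted p. Each array is a slide of its own, so no batch could be fitted. Alternatives covered the background, offset, scaling, filter, flags, the deposited table, the probe of a gene, the replicate number and leaving out each array.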

Additional observations from a re-analysis of the deposited data

How the results depend on the processing

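Of 13 alternatives (the slide as a block was not run, since each slide holds 1 array), those that turned the sign of a gene's difference were nearly all single arrays left out. The number of probes called, 0 with all arrays, lay between 1 and 67 when 1 array was left out (67 without untreated rat 1), with 696 to 2459 probes at an unadjusted p under 0.05 (limma); the lone rat of a group is then taken to vary like the other pair. With the replicate number as a block 126 probes were called, and adjusted p was 0.022 for Fmo2 and 0.041 for the probe listing Ces1f and Ces1c (limma). What the numbers stand for is not given in the labels. Deviations of rats of the same number correlated at -0.074, a single value that cannot show whether such rats were paired. With 1 array left out, the median difference of the members lay between 0.055 and 0.074, that of the Fmo genes between 0.35 and 0.75, that of the Adh genes between 0.0046 and 0.13 and that of the Aldh genes between -0.065 and 0.0701. The same range was -0.24 to 0.098 for the Ces genes, 0.097 to 0.51 for Aox1 and -0.31 to 0.30 for the Mao genes. The Adh median was 0.18 with the mean of all probes of a gene, and the Aldh median was -0.049 with flagged spots missing and 0.035 in the deposited value table; the cause was not tested. The sign of Adh5 turned with median scaling (0.0062) and that of Aldh9a1 in the deposited value table (0.083). Leaving out 1 array turned the sign within these ranges: Adh1c -0.0300 to 0.36, Adh4 -0.11 to 0.15, Adh5 -0.11 to 0.087, Aldh16a1 -0.34 to 0.031, Aldh1a2 -0.22 to 0.068, Aldh1a3 -0.43 to 0.015, Aldh1l2 -0.91 to 0.29, Aldh2 -0.12 to 0.14, Aldh7a1 -0.47 to 0.0603, Aldh9a1 -0.21 to 0.16, Ces1e -0.085 to 0.65, Ces2c -0.18 to 0.071, Ces2e -0.68 to 0.063, Ces5a -0.33 to 0.15, Fmo4 -0.054 to 0.48, Maoa -0.20 to 0.27 and Maob -0.42 to 0.33. The other 14 of 31 gene and probe results kept their direction in every alternative run, with Fmo5 between 0.51 and 0.83 and Fmo2, whose fitted values are no bounds, between 0.54 and 1.53. Probes near background, such as those of Fmo2 and Aldh3b1, give only bounds between group means, which leave out the spread between rats.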
